A study of Mus musculus with 21 samples.

Results

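The transcription factor p53 acts on a set of target genes that stop the cell cycle, repair DNA or start cell death. The set followed here holds the p53 gene itself (Trp53) and 29 of its regulators and targets outside the cyclin-dependent kinase inhibitors, 30 of the 24091 genes in the deposited table, chosen by symbol. Of these, 29 had a mean of at least 1 TPM (a transcript level normalized to transcript length and to a fixed total) over the 21 libraries and were tested; Pmaip1 did not. The p53 protein is held low by the ubiquitin ligase Mdm2, itself a p53 target, and by its relative Mdm4, so the pathway contains its own feedback. Much of p53 control acts on the protein rather than on its mRNA, and RNA levels do not report it. In mesenchymal cells p53 is known as a brake on proliferation and on osteogenic differentiation.

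The RNA came from C3H/10T1/2, a line of mesenchymal progenitors made from mouse embryos, cultured in serum with no other treatment stated. The 7 groups differed in the histone H2B of the cells: wild type (WT), or H2B with lysine or glutamine in place of a glutamate (E71K, E71Q, E76K, E76Q, E113K and E113Q), each with 3 libraries. The title says that the cells express mutant H2B. By which promoter, whether beside the cell's own H2B, and whether a group is 1 clone are not stated in the labels, so a difference between cell lines and an effect of the substitution cannot be told apart. The design text calls the 3 replicates independent and biological but does not say whether they were separate cultures or lines. If they were not, the p-values reflect a spread between samples that may be technical alone. In bulk RNA, fewer cells with a transcript and less of it in each cell cannot be told apart.

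How deeply each library was read is unknown, because TPM carries no read totals. On the axis along which libraries of the same group differed most (the first principal component of the differences within groups, made for each group without that group) 4 libraries lay apart from their mates: replicate 3 of E71K, E76K and E113Q and replicate 1 of E71Q. The locus Mir6236 took 2.19% to 30.6% of TPM, highest in E71K replicate 2, which lowers all other values of that library. Genes of mitosis (12 G2/M genes, from Mki67 to Kif11) summed to 827 to 898 TPM in the WT libraries and 160.1 to 164 TPM in E113K. The sums were 251 to 357 in E71Q, 372 to 377 in E76Q, 497 to 1041 in E71K, 396 to 908 in E76K and 254 to 920.3 in E113Q, the last 3 with replicate 3 lowest. Of 10 mesenchymal markers 9 had a mean of at least 1 TPM in WT, but Thy1 (66.0 ± 0.461 TPM in WT, mean ± SD, n = 3) stood at 0.0791 ± 0.0943 TPM in E71K and at group means below 1 TPM in E71Q and E76Q, and Nt5e was below 1 TPM in every group. The 4 leukocyte markers summed to at most 2.09 TPM and the 4 endothelial markers to at most 3.51 TPM in any library, while other lists moved with the groups. The 8 cartilage markers summed to 96.2 to 104 TPM in WT, 314 to 1108 in E71K, 575 to 989 in E71Q, 781 to 842 in E76Q and 212 to 474 in E113Q. The 6 epithelial markers summed to 11.5 to 14.4 TPM in WT, 81.2 to 488 in E71K and 41.5 to 365 in E71Q, nearly all of it Krt14, and to less than in WT in the other 4. The 6 smooth muscle markers summed to 273 to 278 TPM in WT, 65.3 to 82.4 in E71Q and 519.8 to 622 in E76Q, and the 6 fat cell markers to 1.56 to 2.44 TPM in WT and 32.3 to 72.1 in E76K. A sum is weighted to its most abundant genes. Of 4 smooth muscle markers tested, 1 was higher in E76Q (Acta2, log2 fold change 2.39) and 2 lower (limma adjusted p below 0.05). In E71Q none was higher and 3 were lower. In E113K, with a sum of 337 to 349 TPM, 1 was higher and 2 lower. Of 3 fat cell markers tested, only Fabp4 (5.31) passed in E76K. The part of division, of these other cell type markers and of the libraries that lay apart in the p53 target values was not tested.

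As a set, the p53 targets were called at shares on both sides of those of all genes, and the difference in share was not tested. Genes were called risen or fallen against WT where limma's adjusted p was below 0.05. In E71K 5 of the 29 tested genes rose and 6 fell (37.9%, against 26.7% of all 12192 genes tested, of which 12.5% rose and 14.2% fell). In E71Q 5 rose and 8 fell (44.8%, against 44.2% of all genes, 20.7% risen and 23.5% fallen), and in E76K 4 rose and 3 fell (24.1%, against 33.2%, 23.5% and 9.67%). In E76Q 7 rose and 7 fell (48.3%, against 44.3%, 22% and 22.4%), and in E113Q 5 rose and 4 fell (31%, against 30.6%, 17.9% and 12.7%). E113K had the most calls, 5 risen and 11 fallen (55.2%, against 51%, 30.3% and 20.7%). The median log2 fold change of the 29 genes in E113K was -0.24 against 0.13 for all genes tested. In the other mutants the medians were -0.03 (E71K), -0.07 (E71Q), -0.01 (E76K, against 0.16 for all genes), -0.15 (E76Q) and 0.03 (E113Q), with 0.00, 0.00, 0.02 and 0.06 for all genes of the other 4. The counts of the 6 mutants share the 3 WT libraries. After a median-ratio rescaling of the libraries the median of all genes was 0.01 in E76K and 0.01 in E113K, and no called change of a target turned sign. The medians of the targets were then -0.16 in E76K and -0.37 in E113K.

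Without the 4 libraries that lay apart more of the targets and more of all genes were called. These libraries were picked as the farthest from their mates, so their removal narrows the spread within groups that all comparisons share. A gain in calls could be foreseen from that choice and says nothing of the targets. The counts were 8 risen and 8 fallen in E71K (40.5% of all genes called), 10 and 11 in E71Q (59.4%), 8 and 5 in E76K (44%), 9 and 11 in E76Q (59.9%), 6 and 13 in E113K (64.6%) and 10 and 4 in E113Q (44.4%). The balance of rises and falls depended on scaling. After the rescaling E76K had 4 risen and 9 fallen targets (45.1% of all genes called). E113K then had 5 risen and 16 fallen, E113Q 6 and 6, E71K 8 and 7, E71Q 8 and 9 and E76Q 9 and 10. For these mutants the share of all genes called after the rescaling is not given here. With Mir6236 left out E71K had 8 and 6 (42.7%) and E71Q 9 and 8 (57.8%). Perp passed the filter on low values only through E113Q (its mean over the other 18 libraries was 0.125 TPM). Without it the other 28 genes gave 4 risen and 4 fallen in E113Q, and 1 fallen gene fewer in each of E71Q (7), E76K (2), E76Q (6) and E113K (10). Within the set single genes moved far and in opposite directions, as the map of all libraries shows.

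**Figure D1:**
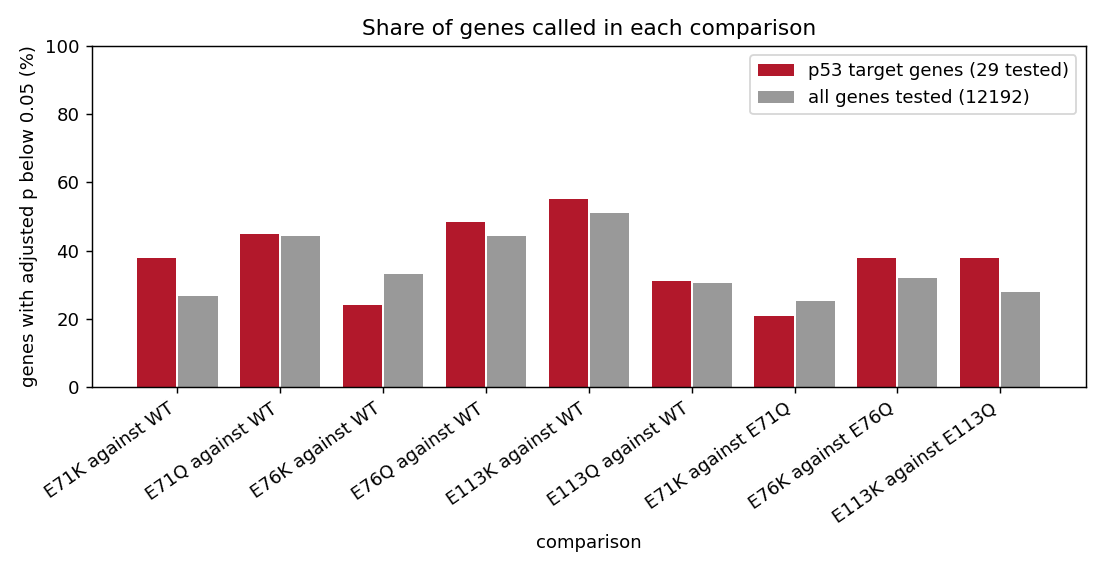
Bars give the percentage of genes with a limma adjusted p below 0.05 in each comparison (x axis), for the 29 tested p53 target genes and for all 12192 genes tested. The share of targets runs from 20.7% in E71K against E71Q to 55.2% in E113K against WT, where all genes have 51%.

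**Figure D2:**
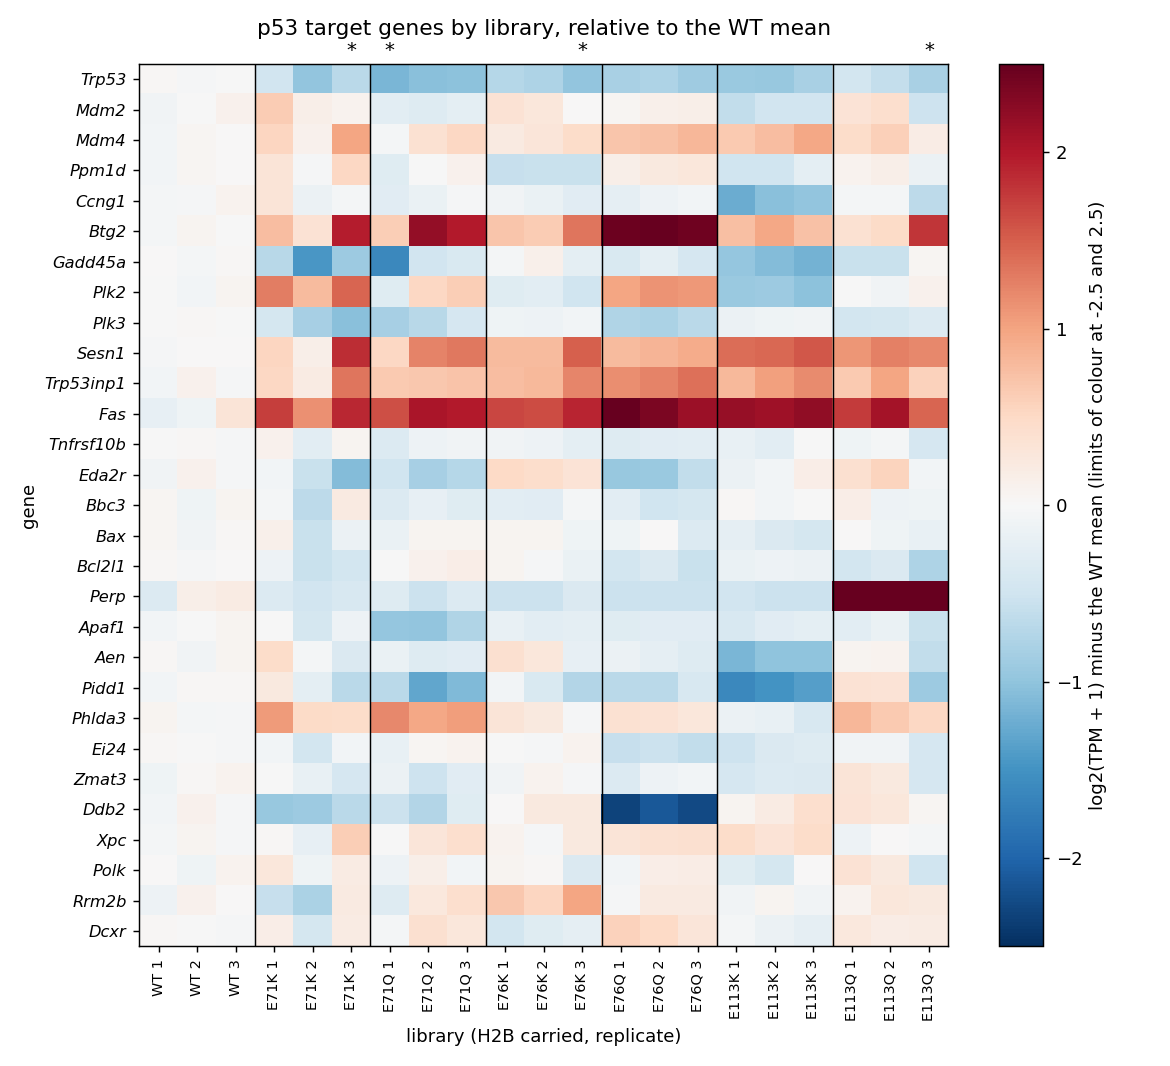
Colours give log2(TPM + 1) minus the WT mean for the 29 tested genes (rows) in the 21 libraries (columns), with asterisks over the 4 libraries that lay apart from their mates. Fas is red and Trp53 blue in all 18 mutant libraries, while Ddb2 is dark blue in E76Q alone and Perp dark red in E113Q alone.

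The mRNA of p53 itself was lower in every mutant. Trp53 (Entrez Gene 22059; chromosome 11, 69580348 to 69591873, as are all positions here in GRCm38) stood at 169, 163 and 165 TPM in the WT libraries, 118, 83.1 and 104 in E71K, 74.5, 79.5 and 80.5 in E71Q, 100.2, 97.1 and 82.7 in E76K, 94.5, 96.3 and 89.2 in E76Q, 86.5, 85.2 and 94.3 in E113K and 120.1, 109.5 and 94.3 in E113Q. All 18 mutant libraries were below the lowest WT library. Trp53 fell by 1.08 ± 0.12 on the log2 scale in E71Q (SE; limma adjusted p = 1.35e-06), by 0.90 in E113K, 0.83 in E76K, 0.82 in E76Q and 0.72 in E71K, and least in E113Q, by 0.62 (adjusted p = 0.000713). In order of mean the groups were WT (166 ± 2.83 TPM, SD, n = 3), E113Q (108 ± 13.0 TPM), E71K (102 ± 17.7 TPM), E76Q and E76K (93.3 ± 3.71 TPM and 93.3 ± 9.31 TPM), E113K (88.7 ± 4.93 TPM) and E71Q (78.2 ± 3.21 TPM). From E113Q down to E113K each mutant's libraries overlapped those of its neighbour in this order, and E113K and E71Q did not overlap. The fall was called in all 6 mutants under every alternative tried, leaving out each library in turn included. Wrap53, whose gene starts beside Trp53 on the other strand, shared no exonic base with it in GENCODE M21, and fell in E113K by 0.74 (adjusted p = 0.000695) and in E76K by 0.42 (adjusted p = 0.0422). In E71Q, E71K, E113Q and E76Q its changes of -0.30, -0.13, -0.08 and -0.01 did not pass.

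The regulators Mdm2, Mdm4 and Ppm1d did not fall in every mutant as the mRNA of p53 did, though Mdm2 and Ppm1d fell in E113K. Mdm2 (Entrez Gene 17246; chromosome 10, 117688875 to 117710758), the ligase that marks p53 for degradation, stood at 59.2, 62.0 and 67.2 TPM in the WT libraries, 97.8, 69.9 and 66.9 in E71K, 52.0, 49.9 and 52.5 in E71Q, 81.2, 76.8 and 63.0 in E76K, 65.1, 68.3 and 69.7 in E76Q, 40.8, 44.9 and 44.6 in E113K and 79.5, 84.0 and 43.8 in E113Q. It fell by 0.52 ± 0.19 in E113K (adjusted p = 0.0288), where the 3 libraries lay below all WT libraries. That call was lost without WT replicate 2 or 3 or without any 1 of the E113K libraries (adjusted p = 0.053 to 0.0889). In the other 5 mutants its log2 fold changes were -0.28 to 0.29 and did not pass. Mdm4, which binds and blocks p53, rose from 10.9 ± 0.489 TPM to 19.7 ± 2.35 TPM in E113K (log2 fold change 0.80 ± 0.18, adjusted p = 0.00163), to 19.0 ± 0.970 TPM in E76Q (0.75) and to 16.8 ± 5.36 TPM in E71K (0.54). In E71K its replicate 3 held 22.5 TPM and the call was lost without any library but replicate 2 (without replicate 3, a log2 fold change of 0.32, adjusted p = 0.168). Ppm1d, the phosphatase Wip1 that switches off DNA damage kinases and p53, fell from 13.5 ± 0.641 TPM to 8.76 ± 0.0648 TPM in E76K (adjusted p = 0.0038) and to 9.90 ± 1.15 TPM in E113K (adjusted p = 0.0165). The E113K call was lost without WT replicate 2 or E113K replicate 1 or 2 (adjusted p = 0.0529 to 0.0618).

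In E113K, the substitution in the acidic patch of the nucleosome that reverses the charge, the means of Mdm2, Ccng1, Aen, Pidd1, Gadd45a, Plk2, Phlda3, Bax, Zmat3 and Polk were the lowest of the 7 groups, as were the summed G2/M genes, while those of Sesn1, Mdm4, Xpc and Ddb2 were the highest. Ccng1 (Entrez Gene 12450; chromosome 11, 40748552 to 40755309), cyclin G1, which recruits a phosphatase to Mdm2, stood at 233, 235 and 256 TPM in the WT libraries, 300.1, 217 and 233 in E71K, 198, 215 and 235 in E71Q, 226, 215 and 197 in E76K, 206, 219.6 and 228 in E76Q, 101, 116 and 122 in E113K and 232, 234 and 152 in E113Q. It fell by 1.09 ± 0.15 in E113K (adjusted p = 1.66e-05), and no library of another group was as low as these 3. E113Q replicate 3 came nearest. In the other 5 mutants its log2 fold changes were -0.25 to 0.04 and did not pass.

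Aen (Entrez Gene 68048; chromosome 7, 78895927 to 78911209), a nuclease that degrades DNA in apoptosis, stood at 45.0, 41.3 and 45.9 TPM in the WT libraries, 60.9, 42.5 and 34.2 in E71K, 39.0, 34.8 and 36.0 in E71Q, 58.2, 53.8 and 37.8 in E76K, 39.8, 37.6 and 34.8 in E76Q, 19.4, 21.3 and 21.3 in E113K and 46.2, 46.5 and 28.4 in E113Q. Its E113K libraries were the 3 lowest of the 21, and it fell by 1.05 ± 0.20 (adjusted p = 0.000338) in E113K and passed in no other mutant. Pidd1 (Entrez Gene 57913; chromosome 7, 141438113 to 141447565), which assembles the caspase-2 complex, stood at 3.74, 4.05 and 4.05 TPM in the WT libraries, 4.83, 3.18 and 2.11 in E71K, 2.10, 1.02 and 1.29 in E71Q, 3.71, 2.81 and 1.96 in E76K, 2.12, 2.10 and 2.73 in E76Q, 0.618, 0.762 and 0.903 in E113K and 5.36, 5.26 and 1.62 in E113Q. It fell by 1.49 ± 0.29 in E113K (adjusted p = 0.000473) and by 1.02 in E71Q (adjusted p = 0.00916). At this low level the size depends on the pseudocount: in E113K it was -2.25 with 0.1 TPM and -0.64 with 5 TPM in place of 1.

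Gadd45a (Entrez Gene 13197; chromosome 6, 67035096 to 67037407), a stress protein of growth arrest and DNA repair, stood at 75.5, 72.2 and 75.9 TPM in the WT libraries, 45.9, 26.5 and 39.2 in E71K, 23.8, 53.3 and 57.0 in E71Q, 72.3, 81.1 and 63.1 in E76K, 57.4, 63.2 and 55.5 in E76Q, 37.7, 34.9 and 32.4 in E113K and 50.3, 50.6 and 77.4 in E113Q. It fell by 1.07 ± 0.26 in E113K (adjusted p = 0.00233), by 1.02 in E71K (adjusted p = 0.00634) and by 0.82 in E71Q (adjusted p = 0.0156). In E71Q replicate 1 held the lowest value of the 21, and without it the change was -0.43 (adjusted p = 0.0875). Of the exonic bases of Gadd45a, 19.1% overlap a transcript on the opposite strand (E230016M11Rik), and the strand of the reads is not stated in the sources used here. Cdkn1a, the p53 target p21 that blocks cyclin-dependent kinases and is no member of the set, stood at 169 ± 1.79 TPM in E113K against 271 ± 1.48 TPM in WT and fell by 0.68 ± 0.10 (adjusted p = 3.66e-05). In E71Q it was called higher, at 336 ± 17.5 TPM (log2 fold change 0.31), and it passed in no other mutant.

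**Figure D3:**
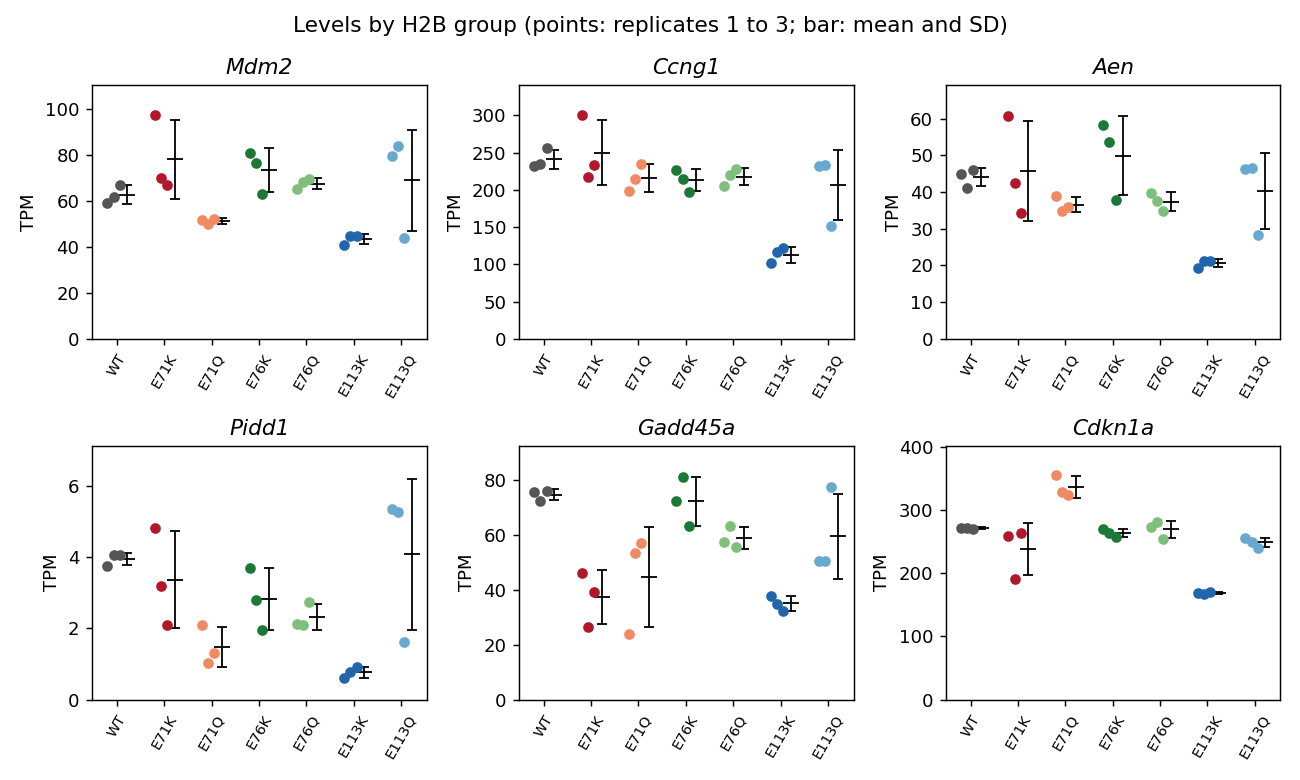
Each panel plots TPM (y axis, from 0) in the 7 H2B groups, with points for replicates 1 to 3 and a bar for the mean and SD. The E113K libraries of Ccng1 (101, 116 and 122 TPM), Aen and Pidd1 lie below every other library, and replicate 3 of E113Q lies under its mates in Mdm2, Ccng1, Aen and Pidd1.

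The promoters of the genes that fell in E113K are shown because p53 can bind its targets near their starts. In the RefSeq table of promoters (250 bases before to 50 after a gene's start, GRCm38.p6) 22 of the 30 genes were found, and 10 of them (45.5%) held a match to the p53 half-site consensus. The consensus is a pattern of 10 bases, with a choice of letters at most places. As a pattern it is the same on both strands, though a single match need not be. Among all tested genes listed there, 748 of 9154 held a match (8.17%). The set was chosen as p53 targets and regulators, so a higher share in it could be foreseen and says nothing of the mutants. Genes with several starts have several such windows, 30 for the 22 genes and 11677 for the 9154. A pair of half-sites at most 13 bases apart, the full consensus, was in none of the 22 genes and in 4 of the 9154. Of the genes that fell in E113K, Mdm2, Ccng1, Aen, Gadd45a, Trp53, Ei24 and Ppm1d held the half-site in these windows, and the sequences of 4 are given 5′ to 3′ with the half-site in capitals. They begin 186 bases before the start in Mdm2, 185 before it in Ccng1, 40 before it in Gadd45a and 121 before it in the Aen window shown. Aen has a second listed start further upstream, from which the same half-site begins 10 bases after the start.
Mdm2 (chr10:117710709-117711008, minus strand): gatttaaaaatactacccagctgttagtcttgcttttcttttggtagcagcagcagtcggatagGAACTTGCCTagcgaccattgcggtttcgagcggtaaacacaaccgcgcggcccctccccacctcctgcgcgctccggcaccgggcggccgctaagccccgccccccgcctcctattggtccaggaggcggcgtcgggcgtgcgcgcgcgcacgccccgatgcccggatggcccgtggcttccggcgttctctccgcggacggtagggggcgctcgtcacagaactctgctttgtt
Ccng1 (chr11:40755237-40755536, minus strand): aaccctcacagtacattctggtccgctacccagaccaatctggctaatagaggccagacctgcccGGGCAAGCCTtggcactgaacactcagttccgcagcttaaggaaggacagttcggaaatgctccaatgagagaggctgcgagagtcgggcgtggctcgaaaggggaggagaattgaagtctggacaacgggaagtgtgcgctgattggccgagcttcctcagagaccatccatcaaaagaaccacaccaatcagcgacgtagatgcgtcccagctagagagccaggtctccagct
Aen (chr7:78895808-78896107, plus strand): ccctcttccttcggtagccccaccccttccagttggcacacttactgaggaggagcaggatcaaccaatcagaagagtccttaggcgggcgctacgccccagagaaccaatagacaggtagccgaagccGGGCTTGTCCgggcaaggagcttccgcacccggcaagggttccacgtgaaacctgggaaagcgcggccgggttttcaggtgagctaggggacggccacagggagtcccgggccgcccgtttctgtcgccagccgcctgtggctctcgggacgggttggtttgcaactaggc
Gadd45a (chr6:67037358-67037657, minus strand): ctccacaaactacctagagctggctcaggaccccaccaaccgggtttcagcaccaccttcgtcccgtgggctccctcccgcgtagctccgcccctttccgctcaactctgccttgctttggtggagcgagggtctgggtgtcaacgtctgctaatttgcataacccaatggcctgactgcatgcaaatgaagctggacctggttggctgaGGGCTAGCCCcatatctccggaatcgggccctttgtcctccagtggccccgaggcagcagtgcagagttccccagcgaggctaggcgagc
Sesn1, Bax and Polk held it too (173, 201 and 231 bases before a listed start), and of these Sesn1 rose and Bax and Polk did not pass in E113K. In Sesn1 and Polk that start lies inside the span of the gene, away from its outermost start. Plk2, Apaf1 and Pidd1 fell there and held none in these windows. A match is a description of these letters, not a bound site.

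Genes of growth restraint moved in different directions in the mutants. Sesn1 (Entrez Gene 140742; chromosome 10, 41810574 to 41908436), a stress sensor that restrains mTORC1, stood at 18.2, 18.7 and 18.9 TPM in the WT libraries, 27.4, 20.6 and 69.2 in E71K, 26.9, 45.5 and 47.7 in E71Q, 32.7, 32.7 and 54.1 in E76K, 32.8, 34.4 and 36.2 in E76Q, 50.5, 52.0 and 56.3 in E113K and 41.1, 45.7 and 44.0 in E113Q. Every mutant library was above all WT libraries. It rose by 1.46 ± 0.31 in E113K (adjusted p = 0.000876) and by 1.18, 1.02, 1.02 and 0.86 in E113Q, E71Q, E76K and E76Q. In E71K (0.84, adjusted p = 0.053) replicate 3 stood far above its mates and the change did not pass. The E76Q call was lost without any 1 of its 6 libraries (adjusted p = 0.0611 to 0.083), the E76K call without WT replicate 1 or E76K replicate 3 and the E71Q call without E71Q replicate 2 or 3.

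Trp53inp1 (Entrez Gene 60599; chromosome 4, 11156441 to 11174379), a nuclear protein that promotes p53 phosphorylation and autophagy, stood at 22.1, 25.0 and 22.7 TPM in the WT libraries, 33.9, 26.9 and 60.3 in E71K, 37.3, 37.4 and 38.7 in E71Q, 40.3, 41.4 and 55.8 in E76K, 52.9, 56.6 and 62.2 in E76Q, 41.7, 48.0 and 54.0 in E113K and 37.2, 47.0 and 35.2 in E113Q. All mutant libraries were above the highest WT library. It rose in all 6 mutants, most in E76Q (log2 fold change 1.26 ± 0.21, adjusted p = 0.000124) and E113K (1.01 ± 0.21, adjusted p = 0.000752) and least in E71Q (0.68 ± 0.21, adjusted p = 0.014). In E71K the rise of 0.69 was 0.37 without replicate 3 (adjusted p = 0.0932), and it was also lost without WT replicate 1 or 3. The E113Q call was lost without E113Q replicate 2 (adjusted p = 0.0595).

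Btg2 (Entrez Gene 12227; chromosome 1, 134074865 to 134079155), an antiproliferative factor that recruits the deadenylase to mRNAs, stood at 5.26, 5.81 and 5.49 TPM in the WT libraries, 10.1, 7.42 and 24.5 in E71K, 8.96, 28.8 and 24.7 in E71Q, 9.49, 9.14 and 15.6 in E76K, 34.5, 38.5 and 34.4 in E76Q, 9.98, 11.8 and 9.82 in E113K and 7.51, 8.02 and 21.6 in E113Q. The 3 E76Q libraries lay close together and above all others, and every mutant library was above WT. Btg2 rose by 2.49 ± 0.42 in E76Q (adjusted p = 0.000153) and by 1.59 ± 0.42 in E71Q (adjusted p = 0.0056). In the other 4 mutants it did not pass (0.82 to 1.03), and in each of E71K, E71Q, E76K and E113Q the library that lay apart was far from its mates, low in E71Q and high in the other 3.

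Plk2 (Entrez Gene 20620; chromosome 13, 110395044 to 110400844), a polo-like kinase of centriole duplication and stress responses, stood at 70.5, 68.2 and 75.1 TPM in the WT libraries, 174, 125 and 196 in E71K, 57.4, 103 and 109.8 in E71Q, 57.1, 59.4 and 50.0 in E76K, 142, 155 and 152 in E76Q, 37.1, 37.5 and 34.7 in E113K and 71, 67.3 and 77.1 in E113Q. It rose by 1.17 ± 0.19 in E71K (adjusted p = 0.000126) and by 1.06 ± 0.19 in E76Q (adjusted p = 0.000253), and fell by 0.95 ± 0.19 in E113K (adjusted p = 0.000551). The libraries of these 3 groups did not overlap those of WT. Perp aside, which passed the filter only through E113Q where it rose, Plk2 was the only member called in both directions. Plk3, a stress kinase of the same family, fell from 6.70 ± 0.109 TPM to 3.58 ± 0.994 TPM in E71K, 3.60 ± 0.186 TPM in E76Q, 3.93 ± 0.714 TPM in E71Q and 4.78 ± 0.242 TPM in E113Q (adjusted p = 0.000221, 0.000233, 0.000742 and 0.0235), so that E71K and E76Q had more Plk2 and less Plk3 than WT. The E113Q call for Plk3 was lost without any 1 of the WT libraries or E113Q replicate 1 or 2 (adjusted p = 0.0558 to 0.0668).

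Among the genes of cell death, the death receptor Fas alone rose in all 6 mutants. Fas (Entrez Gene 14102; chromosome 19, 34290647 to 34327775) stood at 3.20, 3.49 and 5.04 TPM in the WT libraries, 15.1, 9.73 and 17.0 in E71K, 13.8, 18.8 and 18.0 in E71Q, 14.5, 13.9 and 17.1 in E76K, 27.6, 23.8 and 20.3 in E76Q, 20.8, 19.9 and 21.4 in E113K and 15.3, 19.4 and 12.3 in E113Q. Every mutant library was above the highest WT library. It rose by 2.35 ± 0.20 in E76Q (adjusted p = 5.37e-08), 2.16 ± 0.20 in E113K (adjusted p = 1.38e-07) and 1.87, 1.76, 1.73 and 1.59 in E71Q, E113Q, E76K and E71K. These 6 rises were called under every alternative tried. The other death receptor of the set, Tnfrsf10b, the mouse receptor for TRAIL, stood at 13.8 to 20.6 TPM over the 21 libraries and passed in no mutant. Eda2r, the ectodysplasin A2 receptor, fell from 22.2 ± 1.65 TPM to 12.1 ± 1.76 TPM in E76Q (adjusted p = 0.0029), 13.5 ± 1.72 TPM in E71Q (0.0108) and 15.2 ± 5.57 TPM in E71K (0.0434). The E71K call was lost after the rescaling (adjusted p = 0.0673), without Mir6236 and without any library but E71K replicate 1.

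Of the genes that act at the mitochondrion, the activators Bbc3 (Puma) and Bax passed in no mutant. Bbc3 ran from 7.69 to 15.0 TPM and Bax from 189 to 304 TPM over the 21 libraries, with their smallest adjusted p at 0.0503 (E76Q) and 0.0516 (E113K). Pmaip1 (Noxa) was at most 0.058 TPM in any library and at 0 in all WT libraries. Bcl2l1, whose product Bcl-xL protects from apoptosis, fell from 59.1 ± 1.44 TPM to 40.9 ± 5.88 TPM in E113Q (adjusted p = 0.00248), 42.7 ± 2.79 TPM in E76Q (0.00451) and 45.6 ± 7.64 TPM in E71K (0.0237), where leaving out WT replicate 1 or 3 or E71K replicate 2 or 3 ended the call. With Mir6236 left out the E71K change was -0.25. Apaf1, the scaffold of the apoptosome, fell from 12.4 ± 0.614 TPM to 6.18 ± 0.638 TPM in E71Q (adjusted p = 1.06e-05). It was also called lower in E113K and E113Q (-0.30 and -0.32), with the E113K call lost without any 1 of the 6 libraries (adjusted p = 0.0585 to 0.136) and the E113Q call without any but E113Q replicate 2 (0.0625 to 0.216).

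Perp (Entrez Gene 64058; chromosome 10, 18845071 to 18857073), a membrane protein of desmosomes and a p53 effector of apoptosis, was detected at more than 1 TPM in E113Q alone. It stood at 0.150, 0.611 and 0.674 TPM in the WT libraries, 0.157, 0.0485 and 0.110 in E71K, 0.161, 0 and 0.149 in E71Q, 0, 0 and 0.139 in E76K, 0, 0 and 0 in E76Q, 0.0522, 0 and 0 in E113K and 29.4, 28.1 and 26.8 in E113Q. Because it entered the test only through E113Q, these levels are a description and no p is given for that group. All 3 E113Q libraries, including the one that lay apart, held nearly the same level. Its 4 calls as lower (E71Q, E76K, E76Q and E113K, -0.54 to -0.41) concern values below 1 TPM and were lost without WT replicate 2 or 3. Of the nearest tested genes, chosen after the values were seen, Hebp2, 299 kb away, stood at 45.7, 43.4 and 22.6 TPM in E113Q against 5.24, 5.99 and 5.06 in WT and rose by 2.51 ± 0.18 (adjusted p = 1.01e-08). Nhsl1, 311 kb away, rose by 1.79 ± 0.11 there. Both also rose where Perp did not: Hebp2 in E113K by 1.20, and Nhsl1 in E71K, E71Q, E76K and E113K by 0.82 to 1.71. Hebp2 was near 0 in E71K, E71Q and E76Q, and Tnfaip3, 144 kb away on the other side, did not pass (0.21). Of 6 epithelial markers 1 had a mean of at least 1 TPM in E113Q, and they summed to 2.77 to 4.33 TPM there against 11.5 to 14.4 TPM in WT.

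Phlda3 (Entrez Gene 27280; chromosome 1, 135766085 to 135769134), a pleckstrin-homology protein that competes with Akt for the membrane, stood at 194, 179.8 and 182 TPM in the WT libraries, 387, 259 and 254 in E71K, 428, 361 and 383 in E71Q, 230.5, 219 and 182 in E76K, 240.1, 239 and 225 in E76Q, 166, 162 and 141 in E113K and 330.3, 294 and 267 in E113Q. It rose by 1.07 ± 0.14 in E71Q (adjusted p = 1.18e-05) and by 0.67 in E71K and 0.67 in E113Q (adjusted p = 0.0017 and 0.0016). All libraries of these 3 groups were above WT, while the 3 E113K libraries (-0.24, adjusted p = 0.162) were below it and did not pass. Ei24, a protein of the endoplasmic reticulum and autophagy, fell from 68.8 ± 1.31 TPM to 46.0 ± 1.27 TPM in E76Q and 51.9 ± 3.82 TPM in E113K (adjusted p = 0.000929 and 0.00933). Zmat3, an RNA-binding zinc finger protein, ran from 7.17 to 13.5 TPM and passed in no mutant.

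**Figure D4:**
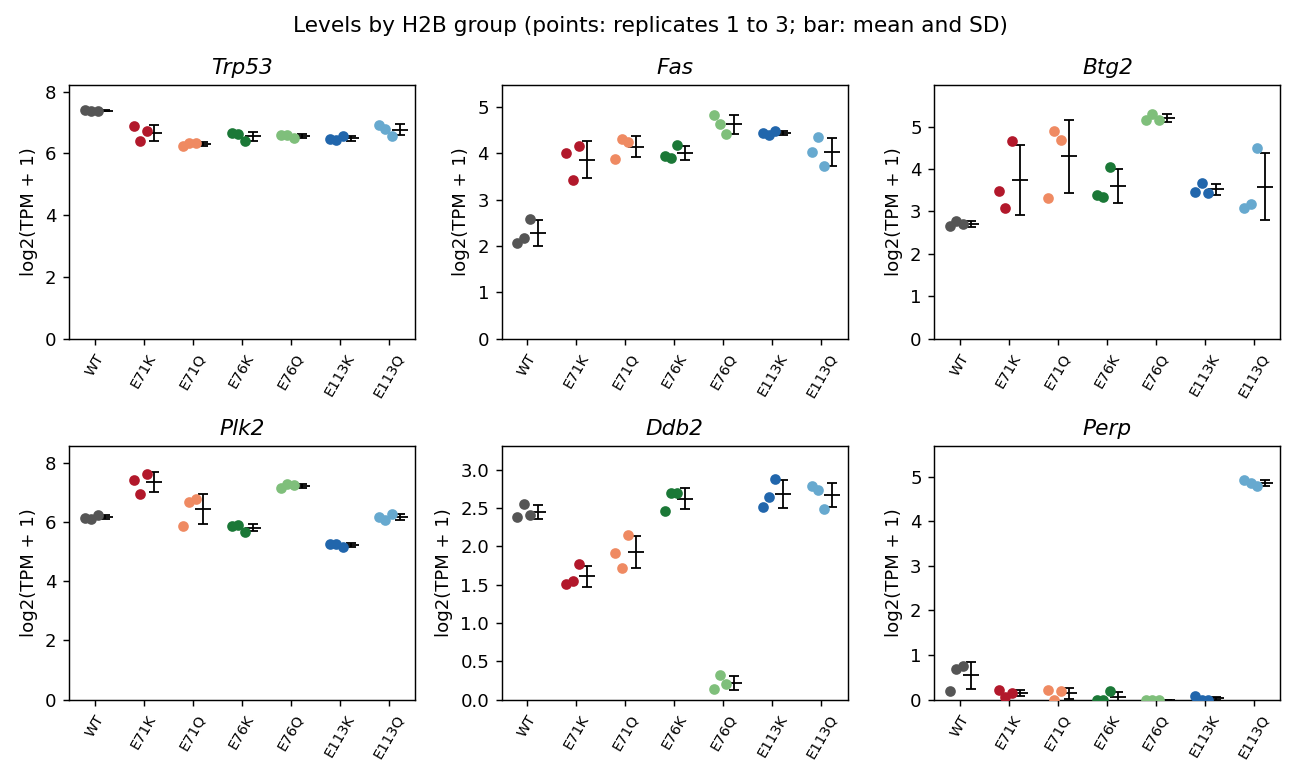
Each panel plots log2(TPM + 1) (y axis, from 0) in the 7 H2B groups for a gene, with points for replicates 1 to 3 and a bar for the mean and SD. Ddb2 is near 0 in E76Q, Perp is above 1 TPM only in E113Q, and Btg2 spreads widely in E71K, E71Q and E113Q.

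Of the DNA repair genes Ddb2 was nearly absent from 1 mutant. Ddb2 (Entrez Gene 107986; chromosome 2, 91211545 to 91237132), the damage sensor of nucleotide excision repair that acts on chromatin with a ubiquitin ligase, stood at 4.20, 4.87 and 4.32 TPM in the WT libraries, 1.85, 1.92 and 2.41 in E71K, 2.75, 2.30 and 3.42 in E71Q, 4.50, 5.48 and 5.50 in E76K, 0.102, 0.250 and 0.147 in E76Q, 4.72, 5.26 and 6.33 in E113K and 5.92, 5.66 and 4.62 in E113Q. The E76Q libraries lay far below all others. Its log2 fold change there was -2.23 ± 0.14 (adjusted p = 1.44e-09) with a pseudocount of 1 TPM and -4.13 with 0.1 TPM, since the level in E76Q is close to 0. It also fell in E71K (-0.84, adjusted p = 0.000198) and E71Q (-0.52, adjusted p = 0.00659), and did not pass in E76K, E113K and E113Q (0.17, 0.23 and 0.23). Of its exonic bases 23.8% overlap Acp2 on the opposite strand, and Acp2 rose in E76Q by 0.83 ± 0.19 (adjusted p = 0.00206). The noncoding gene A330069E16Rik, which lies next to Ddb2 on its other side, held 0, 0.480 and 0.480 TPM in E76Q against 1.54, 0.805 and 0.964 TPM in WT (-0.68, adjusted p = 0.0919). These neighbours were chosen after the values were seen.

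Xpc, which recognises distorted DNA in the same repair pathway, rose in E113K from 10.4 ± 0.473 TPM to 14.2 ± 0.649 TPM (adjusted p = 0.0324, lost without WT replicate 1 or 3 or E113K replicate 1 or 3, at 0.0787 to 0.0852). Polk, a polymerase that copies past lesions, passed in no mutant and ran from 9.32 to 17.7 TPM. Rrm2b, the p53-inducible subunit of ribonucleotide reductase, rose in E76K from 15.2 ± 1.24 TPM to 26.2 ± 4.54 TPM (adjusted p = 0.0152), a call lost without E76K replicate 3 (adjusted p = 0.0798) or WT replicate 1. Dcxr, a carbonyl reductase of sugar metabolism, rose in E76Q from 62.1 ± 1.30 TPM to 85.9 ± 8.03 TPM (adjusted p = 0.0191), lost without WT replicate 3 or E76Q replicate 1 or 2 (adjusted p = 0.0545 to 0.0734).

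Lysine and glutamine at the same residue were compared directly, with no WT library in the contrast. At residue E113, 2 of 29 targets were higher and 9 lower with lysine (37.9%, against 28% of all genes, 14.6% higher and 13.3% lower). Without Perp 2 of the other 28 were higher and 8 lower. The 2 higher with lysine were Xpc and Bcl2l1. Beside Perp, the lower ones were Pidd1 (-1.42 ± 0.29, adjusted p = 0.00169), Plk2 (-0.96 ± 0.19), Phlda3 (-0.92 ± 0.14, adjusted p = 0.000161), Aen (-0.90 ± 0.20), Ccng1 (-0.84 ± 0.15, adjusted p = 0.000569), Gadd45a (-0.72), Mdm2 (-0.60) and Ppm1d (-0.44). Leaving out 1 library at a time ended the calls of Gadd45a, Mdm2, Ppm1d and Xpc, and that of Bcl2l1 was lost without any E113K library or E113Q replicate 3 (adjusted p = 0.05 to 0.101). Without the 4 libraries that lay apart 5 were higher and 15 lower (45% of all genes called), and after the rescaling 3 and 14 (43.5%).

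At residue E76, 6 targets were higher with lysine and 5 lower (37.9%, against 31.9% of all genes, 23.4% higher and 8.46% lower), and 5 and 8 after the rescaling (43.1% of all genes called). Ddb2 (2.40 ± 0.14, adjusted p = 6.09e-10) and Eda2r (1.27 ± 0.20, adjusted p = 0.000112) were higher with lysine, and Btg2 (-1.60 ± 0.42, adjusted p = 0.00772) and Plk2 (-1.42 ± 0.19, adjusted p = 1.78e-05) lower. Ppm1d and Dcxr were lower by 0.79 and 0.79, and Fas by 0.62, a call lost without E76K replicate 1 or 2 or E76Q replicate 1 or 2. Plk3, Rrm2b, Ei24 and Bcl2l1 were higher by 0.65, 0.59, 0.59 and 0.42. The Bcl2l1 call was lost after the rescaling (adjusted p = 0.0562) and without E76K replicate 1 or E76Q replicate 3, and the Rrm2b call without any 1 library.

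At residue E71, 4 targets were higher with lysine and 2 lower (20.7%, against 25.1% of all genes, 12.8% higher and 12.3% lower). The higher ones were Plk2 (0.90 ± 0.19, adjusted p = 0.00285), Apaf1 (0.71 ± 0.12, adjusted p = 0.000442), Mdm2 (0.57) and Trp53 (0.36), and the lower ones Bcl2l1 (-0.46) and Phlda3 (-0.40). After the rescaling 7 were higher and 4 lower (43.2% of all genes called). In a fit of these 6 libraries alone none passed, and without the libraries that lay apart 7 were higher and 10 lower (53.6% of all genes), with Plk2 at 0.46. Leaving out 1 library at a time ended the calls of Trp53, Mdm2 and Phlda3. The mean of the 6 mutants against WT, a single contrast, had 7 targets higher and 9 lower (55.2%, against 45.8% of all genes, 25.5% higher and 20.3% lower), or 6 and 9 of 28 without Perp. The F test over all 7 groups passed 23 of the 29 (79.3%, against 77.1%). The lysine minus glutamine difference itself differed between residues, by the interaction in the limma fit, for 9 of 29 targets between E71 and E76 (21.7% of all genes), 10 between E71 and E113 (32.7%) and 12 between E76 and E113 (29.5%), Perp among them in the comparisons with E113.

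**Figure D5:**
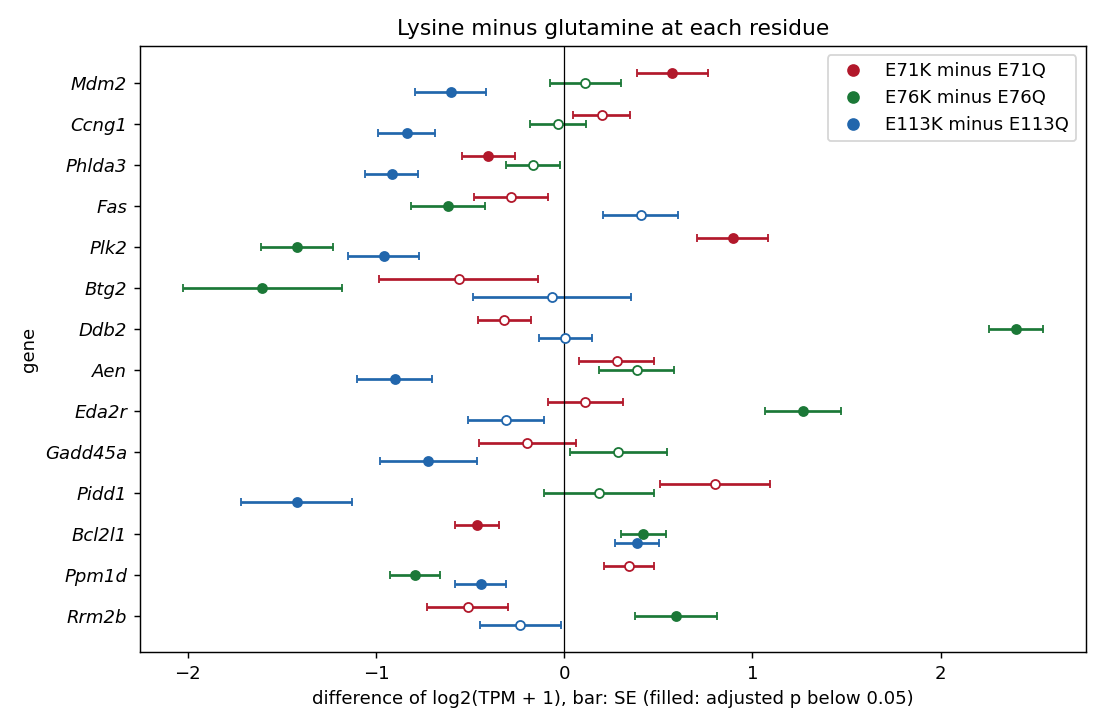
Points give the difference of mean log2(TPM + 1) between lysine and glutamine at each residue (x axis) for 14 genes (y axis), with bars for the SE and filled points for an adjusted p below 0.05. Plk2 is positive at E71 (0.90) and negative at E76 (-1.42) and E113 (-0.96), and Ddb2 at E76 lies farthest from 0 of the genes drawn, which leave out Perp.

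The libraries that lay apart differed from their mates in several targets. In E113Q, replicate 3 held 1.62 TPM of Pidd1 where its mates held 5.36 and 5.26. Among other targets it was also lowest in Mdm2, Aen, Ccng1, Zmat3, Polk, Mdm4 and Trp53inp1, and it was highest in Btg2. Its summed G2/M genes were the lowest of its group too. In E71K and E76K replicate 3 was the lowest of its group for Pidd1, Aen and Mdm2 and the highest for Btg2, Sesn1, Mdm4 and Trp53inp1. Replicate 1 of E71Q went the other way. In TPM as deposited it was the highest of its group for Pidd1 and Aen. It was the lowest for Btg2, Sesn1, Mdm4 and Trp53inp1, with Mdm2 between its mates. Mir6236 took 21.2% of TPM in E71Q replicate 1, which lowers its other values. Its factor in the median-ratio rescaling was 0.826, against 1.01 and 1.07 in its mates. Places after the rescaling are not given here and may differ, as its Trp53inp1 (37.33 TPM) was close to that of its mates (37.37 and 38.66 TPM). The libraries that lay apart are single libraries and were not tested against their mates.

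Other genes of the pathway were described from lists, beside which stand the shares of all genes called: 26.7% in E71K, 44.2% in E71Q, 33.2% in E76K, 44.3% in E76Q, 51% in E113K and 30.6% in E113Q. Of 17 tested kinases, ligases and cofactors that act on p53, the numbers that rose and fell were 2 and 2 in E71K, 1 and 6 in E71Q, 4 and 0 in E76K, 1 and 6 in E76Q, 5 and 5 in E113K and 4 and 2 in E113Q. The checkpoint kinases Chek1 and Chek2 fell in E113K by 2.08 and 1.65, to 2.53 ± 0.352 TPM from 13.9 ± 0.854 TPM and to 3.15 ± 0.453 TPM from 12.0 ± 0.564 TPM. Hipk2, a kinase that phosphorylates p53, and the p53 relative Trp63 rose there by 1.48 and 1.30. Cdkn2a, which encodes the Mdm2 inhibitor Arf, was listed at 0 in all 21 libraries. Of 16 further p53 targets the numbers were 3 and 1 in E71K, 7 and 3 in E71Q, 4 and 1 in E76K, 4 and 3 in E76Q, 3 and 7 in E113K and 3 and 3 in E113Q. Thbs1, thrombospondin 1, rose by 4.08 in E76Q and Dram1, a lysosomal protein, by 2.02, while the mitotic genes Gtse1 and Ckap2 fell in E113K by 2.34 and 2.24. Of 16 further genes of mitochondrial apoptosis the numbers were 2 and 5 in E71K, 2 and 5 in E71Q, 1 and 3 in E76K, 3 and 7 in E76Q, 5 and 4 in E113K and 2 and 5 in E113Q. The activator Bmf rose by 2.90 in E76Q, where Bid fell by 1.49, and Bcl2l11 (Bim) fell in E71Q by 1.62. In E113K the median log2 fold change was 0.27 for the first list, -0.17 for the further targets and 0.27 for the apoptosis genes, against 0.13 for all genes.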

How the data were processed

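RNA-seq values of 21 libraries (7 groups of 3, by the H2B in the labels) were used as TPM, as deposited by the authors, with 24091 genes. Per the submitters' processing notes, Salmon, featureCounts 1.4.4 and DESeq were used with genome build mm10; which of them made the TPM is not given in the sources used here. No counts or depths were used. The 12192 genes averaging 1 TPM or more over the libraries were tested as log2(TPM + 1) in a linear model of the 7 groups by limma 3.58.1 (R 4.3.3; lmFit and eBayes with trend; 14 residual degrees of freedom), and p-values were adjusted by Benjamini-Hochberg over all tested genes in each comparison. Fold changes on this scale understate the change of low genes. The procedure was tested on simulated data. The median-ratio rescaling used 8056 genes above 5 TPM in every library. In groups that spanned more than 10 along the axis within groups, the library farthest from its mates was set apart. The members, lists and tests were chosen with earlier results of these data known. Genes were given in every library where called in any mutant by 1 or more in log2 fold change either way, beside Trp53 and Mdm2; from other lists at most 4 called genes with the largest change were named, and the result of 1 gene is not reported here. Positions are RefSeq's (GRCm38.p6), matched by Entrez Gene identifier for all 30 genes. Alternatives were other pseudocounts, filters, scalings and sample subsets; leaving out Mir6236 and the 4 libraries set apart were added after the data were seen.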

Additional observations from a re-analysis of the deposited data

Results flagged for a closer look

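For the targets whose lysine minus glutamine difference differed between 2 residues by the interaction in the limma fit, those are described here in which it was also called at both residues with opposite signs, 3 in all. The genes were picked by these calls, so the p-values below are no further test of them. Plk2 was higher with lysine at E71 and lower at E76 and E113, and the lysine minus glutamine difference at E71 exceeded that at E76 by 2.31 ± 0.27 (SE; limma adjusted p = 5.17e-06) and that at E113 by 1.85 ± 0.27 (SE; limma adjusted p = 8.13e-05). Mdm2 was higher with lysine at E71 and lower at E113, with a difference between residues of 1.18 ± 0.27 (SE; limma adjusted p = 0.00285). Bcl2l1 was lower with lysine at E71 and higher at E76 and E113, and the difference at E71 minus that at E76 was -0.88 ± 0.17 (SE; limma adjusted p = 0.000875) and minus that at E113 -0.85 ± 0.17 (SE; limma adjusted p = 0.00101). The E71K and E71Q libraries of all 3 genes did not overlap. At E113 those of Plk2 and Bcl2l1 did not overlap either, while E113Q replicate 3 lay among the E113K libraries in Mdm2. In a fit of the compared E71 libraries alone none of the 3 genes passed at E71 (limma adjusted p = 0.167 to 0.204). The Mdm2 call at E113 was lost without any library but E113Q replicate 3. Without the libraries that lay apart the Plk2 difference at E71 was smaller, as given above.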

How the results depend on the processing

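The number of the 29 targets called moved by more than 1.5 times in the cases below. The shares of all genes called under the same settings are not given beside these counts. A count alone is thus no result about the targets. In fits of the 6 compared libraries alone it was 5 in E71K, 12 in E76K, 23 in E76Q and 0 in E71K against E71Q. After the median-ratio rescaling it was 13 in E76K, 11 in E71K against E71Q and 17 in E113K against E113Q, and with Mir6236 left out 10 in E71K against E71Q. Without the 4 libraries set apart it was 21 in E71Q, 13 in E76K, 14 in E113Q, 17 in E71K against E71Q and 20 in E113K against E113Q. Leaving out 1 library at a time gave 7 to 12 calls in E71K, 11 to 13 in E71Q, 5 to 6 in E76K, 11 to 13 in E76Q, 12 to 14 in E113K and 7 to 8 in E113Q. It gave 3 to 9, 8 to 11 and 6 to 11 between lysine and glutamine at E71, E76 and E113, 10 to 17 for the mean of the mutants and 23 to 26 for the F test. The libraries whose loss moved a count by more than 1.5 times were WT replicate 3 in E71K, E71Q replicates 2 and 3 at E71, each but E113Q replicate 3 at E113, and WT replicate 1 in the mean of the mutants. Of 114 called differences of single targets 76 stayed called whichever library was left out, and 111 stayed called after the rescaling. Only 1 reversed: Perp in the mean of the 6 mutants against WT was 0.33 and -0.59 with a pseudocount of 0.1 TPM (adjusted p = 0.275). With the replicate number as a block 13 targets were called in E71K, 12 in E71Q, 7 in E76K, 17 in E76Q, 15 in E113K and 8 in E113Q, and 7, 11 and 10 between lysine and glutamine at E71, E76 and E113. Within the 9 pairs of groups compared, same-numbered libraries correlated at -0.17 to 0.25 in their deviations from the group means. There 13 of 54 matched their own number best, so the numbers did not pair these samples. Between groups not compared with each other some correlations were higher. Replicate 3 of E71K correlated at 0.42 with that of E76K and at 0.37 with that of E113Q, and the latter 2 at 0.30. These 3 libraries were among those set apart, and a tie by number was not tested. TPM keeps no depth, so low values such as those of Pidd1, Perp and Ddb2 carry no counting interval. The cause of these shifts was not tested.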
